A study of Homo sapiens with 6 samples.

Results

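The tumour suppressor p53 is a transcription factor, and 10 of the genes it switches on directly are described here in human cells that were differentiated with or without glutamine. The genes were chosen by name as established direct p53 targets in cell cycle arrest and apoptosis: CDKN1A, MDM2, BBC3, BAX, FAS, SESN1, GDF15, TP53INP1, ZMAT3 and RRM2B. Each name matched 1 row of the table of raw counts, so the 10 genes are 10 of its 60107 gene IDs, and all 10 were among the 22613 genes that passed the filter on low counts and were tested.

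The cells were H9, an established line of human embryonic stem cells, collected on day 9 of a protocol that turns them into nephron progenitor cells, which form the filtering units of the kidney. In 3 libraries the cells had grown in complete medium with glutamine, and in the other 3 they had been deprived of glutamine, a source of carbon and nitrogen for the cell, from day 0. All 6 libraries come from the same cell line and the same day, and both groups went through the same differentiation protocol. Nothing in the labels says that the 3 samples of a group were separate cultures, so p-values measure only the spread between these samples, which may be technical.

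In unstressed cells p53 protein is kept low by MDM2, a ubiquitin ligase that marks it for destruction and is itself made from a p53 target gene. When DNA damage, nucleotide shortage or other stress frees p53 from MDM2, p53 binds its response elements and raises transcription of genes that stop the cell cycle (CDKN1A), trigger mitochondrial or receptor-driven cell death (BBC3, BAX, FAS), limit growth signalling (SESN1) or supply nucleotides for repair (RRM2B). Control of p53 is largely at the level of the protein, which RNA counts do not measure. Some of these genes also have other activators: GDF15 and SESN2, for example, are induced by ATF4, a factor that responds to amino acid shortage.

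A p53 response element is built from a pair of half-sites of 10 bases each. The promoter windows of RefSeq (GRCh38.p14, from 250 bases before to 50 bases after an annotated start) were searched for it because it is the sequence through which p53 reaches these genes. There were 16 windows for 8 of the 10 genes. The search used the p53 half-site consensus, which reads the same on both strands, and asked for a pair of half-sites with at most 2 mismatches in all, the core C and G of each half-site intact, and a gap of at most 13 bases. Such a pair was found for 2 genes, MDM2 and FAS, and the best match in each had no gap and 2 mismatches. Of all 35116 promoter windows, 2.93% held such a pair and 0.285% held one without a gap. A perfect single half-site, present in 6.63% of all windows, was found for FAS, where it is the first half-site of the pair, and for SESN1. These shares count windows, whereas the matches are counted by gene. The stretches are given on the strand of the gene with the matched bases in capitals.
MDM2 (chr12:68808883-68808982, plus strand): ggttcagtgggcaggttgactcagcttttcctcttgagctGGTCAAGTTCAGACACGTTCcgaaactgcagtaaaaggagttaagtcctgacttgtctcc
FAS (chr10:88991309-88991328, plus strand): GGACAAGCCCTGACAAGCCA
SESN1 (chr6:109008989-109009077, minus strand): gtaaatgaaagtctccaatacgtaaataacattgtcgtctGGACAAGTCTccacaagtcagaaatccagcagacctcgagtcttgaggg
The MDM2 and SESN1 stretches hold no exon base of their gene in GENCODE 29, whereas the FAS site lies within an exon of some of its transcripts. The MDM2 pair begins 94 bases before the nearest annotated start, and the FAS pair 122 bases before one of its starts. CDKN1A, which had the largest log2 fold change of the 10, had no match in its window. The part of that window before the start that holds no exon base is shown with its GC boxes (GGGCGG, either strand, a motif that 45% of all windows hold) in capitals.
CDKN1A (chr6:36678464-36678657, plus strand): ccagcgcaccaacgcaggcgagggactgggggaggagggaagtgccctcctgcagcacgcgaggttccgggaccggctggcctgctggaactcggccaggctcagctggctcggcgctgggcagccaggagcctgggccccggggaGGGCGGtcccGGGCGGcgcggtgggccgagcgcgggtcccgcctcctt
A match describes letters only. No match says that the letters are not in this window and nothing of sites elsewhere in a gene.

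The libraries held 78220507 to 84746566 counts each, and 2.49% to 2.7% of the counts came from the mitochondrial genome. Replicate 1 with glutamine stood apart from its group. Its mean Pearson correlation across genes was 0.976 with the 2 remaining supplemented libraries and 0.992 with the deprived ones, so results are also given without it. Markers of the labelled cell type were present, since all 12 nephron progenitor and intermediate mesoderm markers had a mean of at least 1 CPM (counts scaled to a common library size). Of the 6 pluripotency markers, POU5F1 and NANOG had means under 1 CPM, and 4 of 5 endoderm markers did (SOX17, FOXA2, HNF4A and AFP). The 6 pluripotency markers still summed to 359 to 465 CPM with glutamine and 358 to 432 without. The 6 neural ectoderm markers summed to 435 to 476 CPM with and 437 to 577 without. For the 6 presomitic and somite markers the sums were 60.7 to 195 CPM with and 64.0 to 83.8 without. Summed marker levels moved with the groups in some lists. The 5 smooth muscle and stroma markers summed to 316 to 519 CPM with glutamine and 588 to 853 without, and the 5 endothelial and blood markers to 27.4 to 86.9 with and 14.5 to 19.6 without. The 5 endoderm markers summed to 2.47 to 8.20 CPM with glutamine and 12.6 to 15.7 without. The 12 nephron progenitor markers summed to 984 to 1665 with and 1543 to 2067 without. In the smooth muscle, endothelial, endoderm and nephron sums, replicate 1 was the supplemented library nearest the deprived ones. Its sums were 519, 27.4, 8.20 and 1665 CPM in that order. The part of these marker shifts in the results below was not tested.

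The 10 p53 targets did not move together. CDKN1A averaged 1.95-fold higher without glutamine, with no overlap between groups, TP53INP1 was higher in comparison with 2 of the 3 libraries that had glutamine, and MDM2 was higher by a small amount. GDF15 was on average higher and BBC3, ZMAT3 and FAS on average lower, each with an interval that holds 0, and BAX, SESN1 and RRM2B lay closest to no difference. With edgeR's quasi-likelihood test across all genes, 0 of the 10 had a Benjamini-Hochberg adjusted p under 0.05, in a comparison in which 0.00442% of all genes tested did. At an unadjusted p under 0.05 there were 3 of 10 (CDKN1A, TP53INP1 and MDM2, all higher), against 29.7% of all genes (14.7% higher and 15.0% lower). DESeq2 called 1 of 10, CDKN1A, against 14.0% of the genes it adjusted over (7.54% higher and 6.44% lower). Without replicate 1 with glutamine edgeR called 4 of 10, CDKN1A and TP53INP1 higher and BBC3 and ZMAT3 lower, against 41.3% of all genes (22.3% higher and 19.0% lower). DESeq2 without that library called the same 4 genes in the same directions, against 32.4% (17.9% higher and 14.6% lower). Groups did not overlap for 2 of 10, CDKN1A and MDM2, both higher, against 34.2% of all genes (17.3% higher and 16.9% lower). These counts are close to or under the shares of all genes, so they say nothing particular about p53 targets. The median log2 fold change of the 10 was 0.09, and that of all genes tested was 0.001. The median of the 10 ran from 0.053 (replicate 2 with glutamine left out) to 0.13 (replicate 3 with glutamine left out), with 0.058 when replicate 2 of the deprived group was omitted, and it was 0.046 under upper quartile scaling. In bulk RNA a change in the number of cells that express a gene and a change in RNA per cell cannot be told apart.

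**Figure D1:**
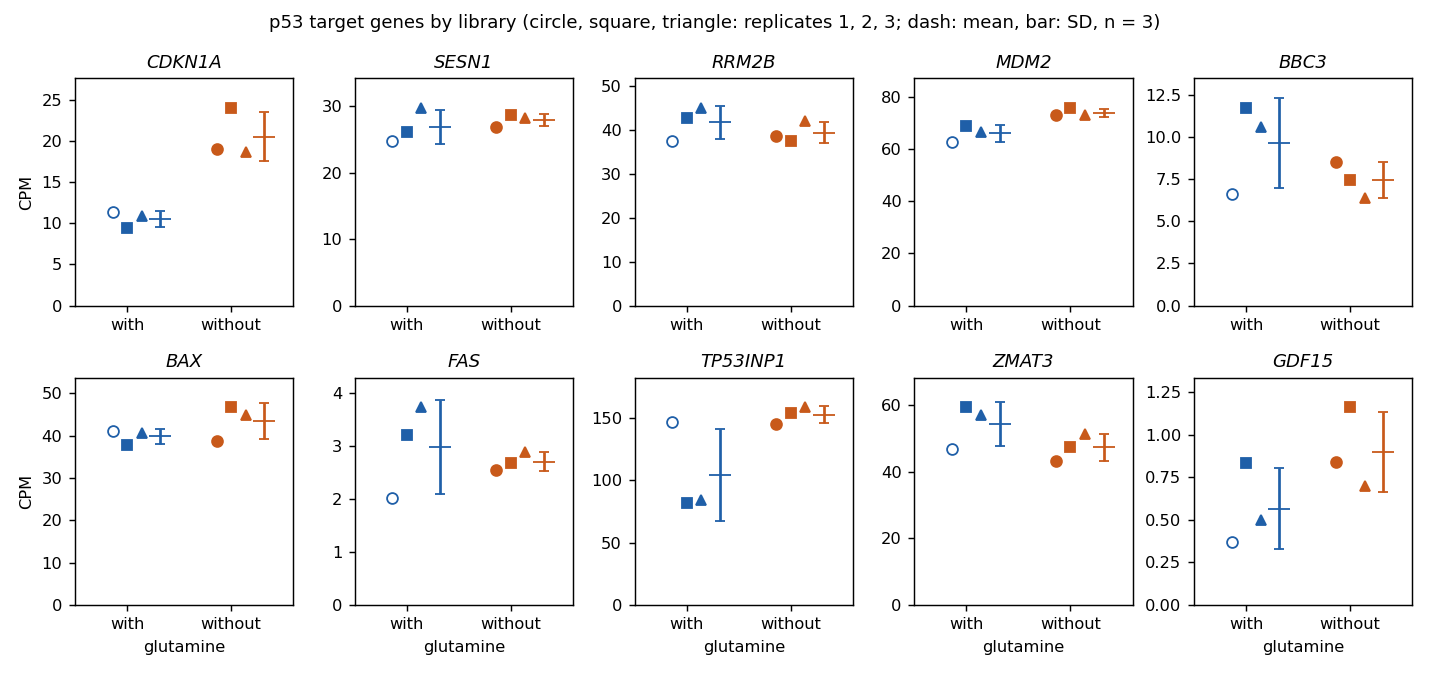
Expression of the 10 p53 targets in each library, in CPM on axes that start at 0, with glutamine in blue and without in orange. Circles, squares and triangles are replicates 1, 2 and 3, the open circle is replicate 1 with glutamine, and the dash and bar are the mean and SD of 3 libraries. CDKN1A separates the groups by the widest margin, whereas in TP53INP1, BBC3, ZMAT3, BAX and RRM2B the open circle lies within the range of the orange points.

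CDKN1A (ENSG00000124762, chromosome 6 at 36676460 to 36687339, plus strand, GRCh38 in GENCODE 29) encodes p21, which binds and blocks cyclin-dependent kinases and the replication clamp PCNA. Its level in replicates 1, 2 and 3 was 11.3, 9.46 and 10.9 CPM in the supplemented group and 19.0, 24.0 and 18.6 CPM in the deprived group. Each deprived library exceeded each supplemented one, and replicate 1 with glutamine lay with its own group. The means were 10.5 ± 0.964 and 20.6 ± 3.01 CPM (SD, n = 3). This is a log2 fold change of 0.96 (SE 0.13, 95% interval 0.65 to 1.27). The adjusted p from edgeR was 0.068, which misses the threshold and is shared with other genes, CDK1 and CCNA2 among them. It was 0.000213 without replicate 1 with glutamine, at a log2 fold change of 1.02, and 1.46e-07 with DESeq2. Over 18 alternatives the log2 fold change of CDKN1A stayed between 0.84 and 1.03 and the adjusted p from 9.02e-12 to 0.259, with 3 calls. The size was therefore stable, and whether the gene was called differed between alternatives.

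Most of the genes for cyclins and kinases, whose products p21 binds, were also higher without glutamine. Of 12 cyclins, kinases and PCNA fixed as a list, 11 had a positive log2 fold change, with a median of 0.55, and 9 were higher and 1 lower with no overlap between groups, against 34.2% of all genes without overlap. With edgeR 0 of the 12 passed, while 10 were at an unadjusted p under 0.05 (9 higher, 1 lower), and DESeq2 called 8 higher and 1 lower, against 29.7% and 14.0% of all genes. The median without replicate 1 with glutamine was 0.73 and edgeR called 10 higher and 1 lower, against 41.3% of all genes. The lower gene was CCND2, a G1 cyclin at 653 ± 93.8 CPM with and 488 ± 18.9 without glutamine, named after its values were seen. CDK2, the kinase best known as a p21 target, was at 64.2 ± 6.9 CPM with and 84.4 ± 1.05 without (log2 fold change 0.39, SE 0.09). PCNA was at 190 ± 27.4 and 279 ± 14.2 CPM (log2 fold change 0.55, SE 0.11). CCNA2, the S phase and G2 cyclin, and CDK1, the mitotic kinase, had log2 fold changes of 0.52 and 0.55, CCNE2, a partner of CDK2, 0.71 and CDK6, a G1 kinase, 1.34. The direction did not change for any of these 6 genes under the alternatives. CCNA2, CDK1, CCNE2 and CDK6 were named because their p was the smallest of the list, so for them this is not independent support.

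SESN1 (ENSG00000080546, chromosome 6 at 108986437 to 109094819, minus strand) encodes a sestrin that restrains mTORC1. Its level in replicates 1, 2 and 3 was 24.8, 26.2 and 29.7 CPM in the supplemented group and 26.9, 28.6 and 28.3 CPM in the deprived group. The groups overlapped, and the log2 fold change was 0.05 (SE 0.09, adjusted p from edgeR 0.712). Its 95% interval ran from -0.16 to 0.27, so a change of the size seen in CDKN1A lies outside it. Without replicate 1 with glutamine it was 0.003 (adjusted p from edgeR 0.982). The other sestrin genes were apart between groups, in opposite directions. SESN2, which ATF4 also induces, was at 27.7 ± 2.29 CPM with and 33.6 ± 0.151 without (log2 fold change 0.28, SE 0.08, adjusted p from edgeR 0.0948). SESN3, better known as a FOXO target, was at 481 ± 74.4 and 329 ± 26.4 CPM (log2 fold change -0.55, SE 0.13, adjusted p from edgeR 0.0721). In the GATOR2 complex, which sestrins bind, the subunit genes WDR59 (-0.16), MIOS (-0.12) and SEH1L (0.18) had small log2 fold changes.

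RRM2B (ENSG00000048392, chromosome 8 at 102204502 to 102239118, minus strand) encodes the p53-induced small subunit of ribonucleotide reductase, which makes deoxynucleotides outside S phase. Its 3 supplemented libraries measured 37.5, 42.7 and 45.0 CPM and its 3 deprived libraries 38.7, 37.4 and 42.1 CPM. The lower ends of both ranges were alike, and the groups overlapped. Its log2 fold change was -0.08 (SE 0.09, 95% interval -0.31 to 0.14, adjusted p from edgeR 0.567), and -0.15 (adjusted p from edgeR 0.147) without replicate 1 with glutamine. The genes of RRM2, the small subunit used in S phase, and of RRM1 were both higher without glutamine with no overlap between groups. RRM2 was at 95.1 ± 25.8 CPM with glutamine and 172 ± 7.77 without (log2 fold change 0.86, SE 0.18, adjusted p from edgeR 0.0689). RRM1, the large subunit, was at 227 ± 18.5 and 281 ± 12.1 CPM (log2 fold change 0.31, SE 0.08, adjusted p from edgeR 0.0799). Both were called by DESeq2 and by edgeR without replicate 1 with glutamine, and RRM2B by neither. The difference between RRM2B and the other subunits was not tested.

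MDM2 (ENSG00000135679, chromosome 12 at 68808176 to 68850686, plus strand) closes the feedback loop on p53, and the match to the p53 element near its inner start is printed above. Its level in replicates 1, 2 and 3 was 62.5, 68.7 and 66.4 CPM in the supplemented group and 72.8, 75.6 and 72.9 CPM in the deprived group. The deprived libraries exceeded the supplemented ones by a narrow margin. The log2 fold change was 0.16 (SE 0.07, adjusted p from edgeR 0.164), with a 95% interval of 0.002 to 0.32. The upper bound is a 1.25-fold difference, below the lower bound of 1.57-fold for CDKN1A. Without replicate 1 with glutamine it was 0.13 (SE 0.07). No alternative called MDM2, and its adjusted p ran from 0.146 to 0.383.

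MDM4, the relative of MDM2 that masks p53, measured 109 ± 9.25 CPM with glutamine and 98.7 ± 2.62 CPM without (log2 fold change -0.15). Among the 12 genes of the list to which MDM4 belongs, regulators of the p53 pathway, 5 had positive and 7 negative log2 fold changes, with a median of -0.03. With edgeR 0 passed, 3 higher and 1 lower were at an unadjusted p under 0.05, and DESeq2 called 2 higher and 1 lower, against 29.7% and 14.0% of all genes. With replicate 1 with glutamine left out, edgeR called 3 higher and 1 lower, against 41.3% of all genes. CHEK1, the checkpoint kinase of replication stress, was higher at 98.9 ± 2.78 CPM against 74.2 ± 7.64 with glutamine (log2 fold change 0.41, SE 0.09), and ATM, the kinase of double-strand breaks, was lower at 174 ± 9.66 against 228 ± 24.3 (-0.38, SE 0.09). TP73, a p53 relative, had means under 1 CPM in both groups. CDKN2A, whose products include the MDM2 inhibitor p14ARF, had 14, 4 and 3 counts in the libraries with glutamine and 42, 32 and 23 without. Its log2 fold change was 2.16 (SE 0.47), and it was among the genes of the list that DESeq2 called higher. That call rests on few counts, too few to set the level of CDKN2A beside the others.

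BBC3 (ENSG00000105327, chromosome 19 at 47220822 to 47232766, minus strand) encodes PUMA, which neutralises the survival proteins of the BCL2 family. Its level in replicates 1, 2 and 3 was 6.62, 11.7 and 10.6 CPM in the supplemented group and 8.49, 7.47 and 6.37 CPM in the deprived group. Replicates 2 and 3 with glutamine were above every library without it, and replicate 1 was among them. The log2 fold change was -0.37 (SE 0.22, adjusted p from edgeR 0.295). Without replicate 1 with glutamine it was -0.58 (SE 0.13, adjusted p from edgeR 0.00501), and over the 18 alternatives the adjusted p ran from 0.000322 to 0.65. BBC3 was therefore opposite in sign to CDKN1A.

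BAX (ENSG00000087088, chromosome 19 at 48954815 to 48961798, plus strand) encodes the protein that opens pores in the outer mitochondrial membrane. Its 3 supplemented libraries measured 41.0, 37.8 and 40.7 CPM and its 3 deprived libraries 38.8, 46.7 and 44.9 CPM. The lowest library without glutamine was inside the range of the other group. It had a log2 fold change of 0.13 (SE 0.09, 95% interval -0.09 to 0.34, adjusted p from edgeR 0.383), and 0.15 without replicate 1 with glutamine. No alternative called it.

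The wider BCL2 family split in both directions. Of its 12 listed genes, 4 were higher and 4 lower with no overlap between groups, against 34.2% of all genes, and the median log2 fold change was -0.02. With edgeR 0 passed, the same number in each direction, 4, was at an unadjusted p under 0.05, and DESeq2 called 3 higher and 4 lower, against 29.7% and 14.0% of all genes. Leaving out replicate 1 with glutamine, edgeR called 5 higher and 4 lower, against 41.3%. The survival genes BCL2L1 and MCL1 were higher without glutamine, at log2 fold changes of 0.45 (SE 0.09) and 0.33 (SE 0.07), while the survival gene BCL2 was lower at -0.41 (SE 0.09). The BH3-only death genes BMF and HRK were both lower, at -0.67 (SE 0.11) and -0.67 (SE 0.15). These 5 genes had the same direction in all alternatives and were each called by DESeq2. BMF, BCL2L1, HRK and BCL2 were named because their p was the smallest of the list, so for them neither result is independent support. Other death genes of the list went both ways with no overlap between groups. BOK and BAD were higher, at 0.81 (SE 0.20) and 0.40 (SE 0.13), and BCL2L11 was lower at -0.57 (SE 0.13). BOK, BAD and BCL2L11 were named after their values were seen.

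FAS (ENSG00000026103, chromosome 10 at 88990582 to 89015785, plus strand) encodes a death receptor at the cell surface. Its level in replicates 1, 2 and 3 was 2.01, 3.2 and 3.73 CPM in the supplemented group and 2.55, 2.68 and 2.89 CPM in the deprived group, from 163 to 293 counts per library. The libraries without glutamine lay between replicate 1 and the other 2 with glutamine. Its log2 fold change was -0.14 (SE 0.23, adjusted p from edgeR 0.713). It was -0.36 (SE 0.14, adjusted p from edgeR 0.0615) without replicate 1 with glutamine, and 0.05 without replicate 3, and the adjusted p ran from 0.0615 to 0.913 over the 18 alternatives. FAS shares 380 exon bases on the opposite strand with ACTA2, the smooth muscle actin gene, named here for that overlap, which was at 14.1 ± 1.85 CPM with and 80.8 ± 29.8 without glutamine. The strand setting of the counting is not given in the sources used here, so reads from the shared bases cannot be assigned to 1 of the 2 genes.

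Of 8 listed genes in the pathway below FAS, 7 were tested and 6 had positive log2 fold changes, with a median of 0.37. With edgeR 0 passed, 4 were at an unadjusted p under 0.05, all higher, and DESeq2 called 3, also higher, against 29.7% and 14.0% of all genes. The median without replicate 1 with glutamine was 0.54 and edgeR called 4, all higher, against 41.3% of all genes. CASP8, the initiator caspase, was at 2.26 ± 1.11 CPM with and 4.94 ± 1.03 without glutamine (log2 fold change 1.12, SE 0.33, adjusted p from edgeR 0.0919). FADD, the adaptor, had a log2 fold change of 0.90 (SE 0.34). Without replicate 1 of the deprived group FADD was at 0.46. FASLG, the ligand, was not tested because it had almost no counts.

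TP53INP1 (ENSG00000164938, chromosome 8 at 94925972 to 94949411, minus strand) encodes a stress protein that promotes cell death and autophagy. Its level in replicates 1, 2 and 3 was 147, 81.6 and 84.4 CPM in the supplemented group and 145, 154 and 159 CPM in the deprived group. Replicate 1 with glutamine was inside the range of the libraries without it, and the other 2 were far below. The log2 fold change was 0.55 (SE 0.22, adjusted p from edgeR 0.152) with all libraries and 0.88 (SE 0.07, adjusted p from edgeR 1.09e-05) without that library. Over the 18 alternatives the adjusted p of TP53INP1 ran from 1.81e-24 to 0.404.

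ZMAT3 (ENSG00000172667, chromosome 3 at 179017223 to 179072279, minus strand) encodes a zinc finger protein that binds RNA and alters splicing. Its 3 supplemented libraries measured 46.9, 59.4 and 57.0 CPM and its 3 deprived libraries 43.3, 47.4 and 51.2 CPM. As for BBC3, replicates 2 and 3 with glutamine were above all libraries without it and replicate 1 was among them. This gave a log2 fold change of -0.20 (SE 0.11, adjusted p from edgeR 0.261) and -0.30 (SE 0.08, adjusted p from edgeR 0.0179) without replicate 1 with glutamine. Over the 18 alternatives its adjusted p ran from 0.0105 to 0.58.

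GDF15 (ENSG00000130513, chromosome 19 at 18374731 to 18389176, plus strand) encodes a secreted stress cytokine and was the lowest of the 10. It had 30, 65 and 39 counts in replicates 1, 2 and 3 with glutamine and 72, 91 and 55 without, or 0.37, 0.83 and 0.5 CPM against 0.84, 1.16 and 0.7. Replicate 2 with glutamine was above replicate 3 without it, so the groups overlapped. This gave a log2 fold change of 0.67 (SE 0.34, 95% interval -0.13 to 1.47, adjusted p from edgeR 0.228), an interval that holds no difference as well as a 2.77-fold one. It was 0.44 (adjusted p from edgeR 0.269) without replicate 1 with glutamine and 1.04 without replicate 2. GFRAL, its receptor gene, was not tested because it had almost no counts.

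ATF4, which can raise GDF15, BBC3 and SESN2 without p53, was listed with genes of its pathway, 13 in all, of which 12 were tested. With edgeR 0 passed, 6 higher and 2 lower were at an unadjusted p under 0.05, DESeq2 also called 6 higher and 2 lower, against 29.7% and 14.0% of all genes. The median log2 fold change was 0.20, and it ran from 0.14 to 0.39 with 1 library left out, the highest without replicate 3 with glutamine. ATF5 (1.08), CHAC1 (1.78), ASNS (0.89) and PSAT1 (0.50) had the smallest p-values of this list, all higher without glutamine. The lower genes were DDIT4 (-1.10), an mTORC1 inhibitor gene, and VLDLR (-0.78), a lipoprotein receptor gene, both named after their values were seen. With replicate 1 with glutamine left out, edgeR called 6 higher and 3 lower, against 41.3% of all genes. Replicate 1 with glutamine lay nearer the other group for 6 of the 12 tested genes.

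**Figure D2:**
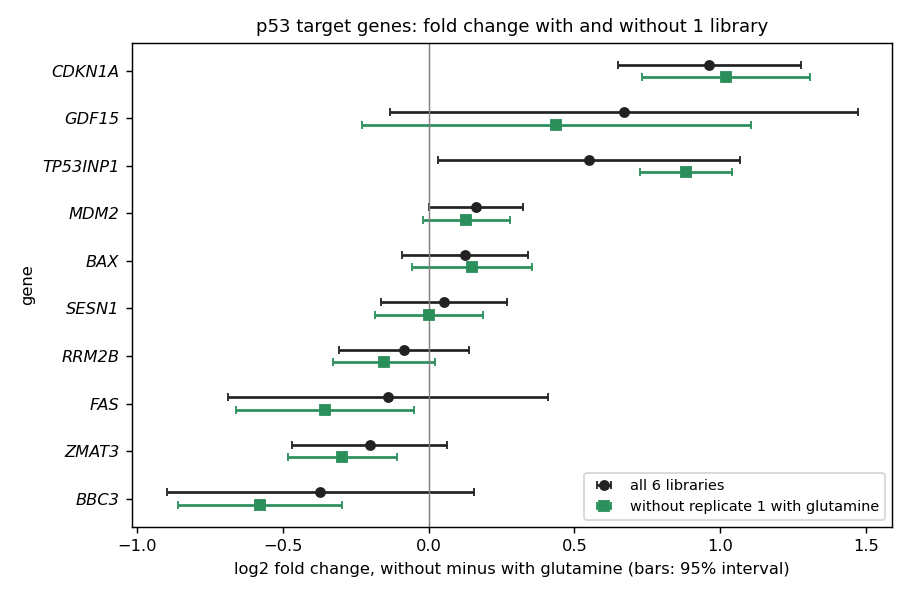
Log2 fold change of the 10 p53 targets, without minus with glutamine, from edgeR with all 6 libraries (black circles) and without replicate 1 with glutamine (green squares). Bars are 95% intervals for single genes. CDKN1A stays near 1 in both fits, TP53INP1 moves from 0.55 to 0.88, and BBC3 and ZMAT3 move away from 0 on the lower side.

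Levels of different genes were compared per kilobase of exon, with the length taken over all annotated exons of a gene in GENCODE 29. That length was 13284 bases for MDM2 and 3050 for CDKN1A. Which transcripts the cells used was not measured, so the order of the genes depends on the lengths taken. With glutamine TP53INP1 was the highest at 18.4 CPM per kilobase, followed by BAX at 15.4, RRM2B at 7.52, ZMAT3 at 5.64, SESN1 at 5.26, MDM2 at 4.96, CDKN1A at 3.46, BBC3 at 3.03, FAS at 0.701 and GDF15 at 0.271. The first place of TP53INP1 rested on replicate 1 with glutamine (25.9), since in replicates 2 and 3 TP53INP1 (14.4 and 14.9) was below BAX (14.6 and 15.7). Levels in libraries overlapped for TP53INP1 and BAX, for ZMAT3 and SESN1, for ZMAT3 and MDM2, for SESN1 and MDM2 and for CDKN1A and BBC3. Without glutamine CDKN1A moved from the seventh to the fourth place, at 6.74 CPM per kilobase, above MDM2 at 5.55, SESN1 at 5.46 and ZMAT3 at 4.91. In that group each library of CDKN1A (6.10 to 7.87) was above each of MDM2 (5.48 to 5.69), while in the group with glutamine each (3.10 to 3.71) was below (4.71 to 5.17). With a shorter length for MDM2 its values would be higher, so this crossing holds only for the lengths used here.

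A further 34 p53 targets were listed by function. Of these, 25 had positive and 9 negative log2 fold changes, with a median of 0.20. Over all 22613 genes tested 11343 were positive, with a median of 0.001. With edgeR 0 passed. At an unadjusted p under 0.05 were 11 higher and 2 lower, against 29.7% of all genes (14.7% higher and 15.0% lower). With no overlap between groups 10 were higher and 1 lower, against 34.2% of all genes (17.3% higher and 16.9% lower). DESeq2 called 5 higher and 1 lower, against 14.0% of the genes it adjusted over (7.54% higher and 6.44% lower). The median without replicate 1 with glutamine was 0.23 and edgeR called 13 higher and 5 lower, against 41.3% of all genes (22.3% higher and 19.0% lower). Both directions occurred, with more of the 34 higher than lower, and this lean was not tested.

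Among the 9 arrest genes the median was 0.27. PPM1D, the phosphatase that shuts off p53 signalling, was at 34.3 ± 1.25 CPM with glutamine and 41.4 ± 1.79 without (log2 fold change 0.27, SE 0.07, adjusted p from edgeR 0.0823). E2F7, a repressor of cell cycle genes, was at 43.0 ± 2.21 and 52.4 ± 4.37 CPM (0.28), and GADD45A, a growth arrest gene, at 11.7 ± 2.27 and 14.8 ± 0.938 (0.34). CCNG1, a cyclin that p53 induces strongly and the most abundant of the arrest genes in CPM, was in contrast lower without glutamine in every library, at 398, 516 and 569 CPM with glutamine and 391, 392 and 380 without (-0.35, SE 0.13, adjusted p from edgeR 0.131, and -0.48 without replicate 1 with glutamine).

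Among the 12 apoptosis genes the median was 0.20, and 5 were higher with no overlap between groups, against 17.3% of all genes. PMAIP1, which encodes the BH3-only protein NOXA, measured 15.3, 4.76 and 5.68 CPM in the supplemented libraries, against 26.6, 30.9 and 28.7 when deprived. Every library without glutamine was above every library with it, and replicate 1 stood between the other 2 of its group and the libraries without. Its log2 fold change was 1.74 (SE 0.41, adjusted p from edgeR 0.0724), and 2.46 (SE 0.11) without that library. PHLDA3, an inhibitor of AKT, was at 4.54 ± 0.669 and 7.61 ± 0.572 CPM (0.74, SE 0.14), SPATA18, a mitochondrial quality control gene, at 1.46 ± 0.272 and 2.51 ± 0.0937 (0.78, SE 0.18) and TP53I3, a quinone oxidoreductase gene, at 16.6 ± 4.04 and 25.5 ± 2.92 (0.62, SE 0.18). DESeq2 called these 4 higher, and 1 gene of the list, TNFRSF10B, lower.

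TNFRSF10B and EDA2R, death receptor genes of that list, were chosen for mention after their values were seen. TNFRSF10B, a receptor for TRAIL, measured 136, 206 and 210 CPM in the supplemented libraries, against 137, 130 and 121 when deprived (-0.51, SE 0.16, adjusted p from edgeR 0.107). EDA2R measured 6.93, 13.1 and 14.0 CPM in the supplemented libraries, against 7.65, 7.54 and 7.96 when deprived (-0.55, SE 0.25, 95% interval -1.14 to 0.03, adjusted p from edgeR 0.186). In both, replicate 1 with glutamine was the lowest of its group. Without that library their log2 fold changes were -0.68 and -0.81 (adjusted p from edgeR 6.75e-05 and 8.9e-05). With all libraries the adjusted p from DESeq2 was 0.0441 for TNFRSF10B and 0.115 for EDA2R.

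Among the 13 repair and metabolism genes the median was 0.15. DRAM1, a lysosomal autophagy gene, was at 5.32 ± 1.25 CPM with and 9.92 ± 1.48 without glutamine (0.90, SE 0.19, adjusted p from edgeR 0.0706). FUCA1, a lysosomal enzyme gene, had a log2 fold change of 0.47 (SE 0.17), and TIGAR, a regulator of glycolysis, was at 14.7 ± 1.29 and 18.4 ± 2.23 CPM (0.32, SE 0.12). DRAM1 was the 1 gene of this list that DESeq2 called.

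**Figure D3:**
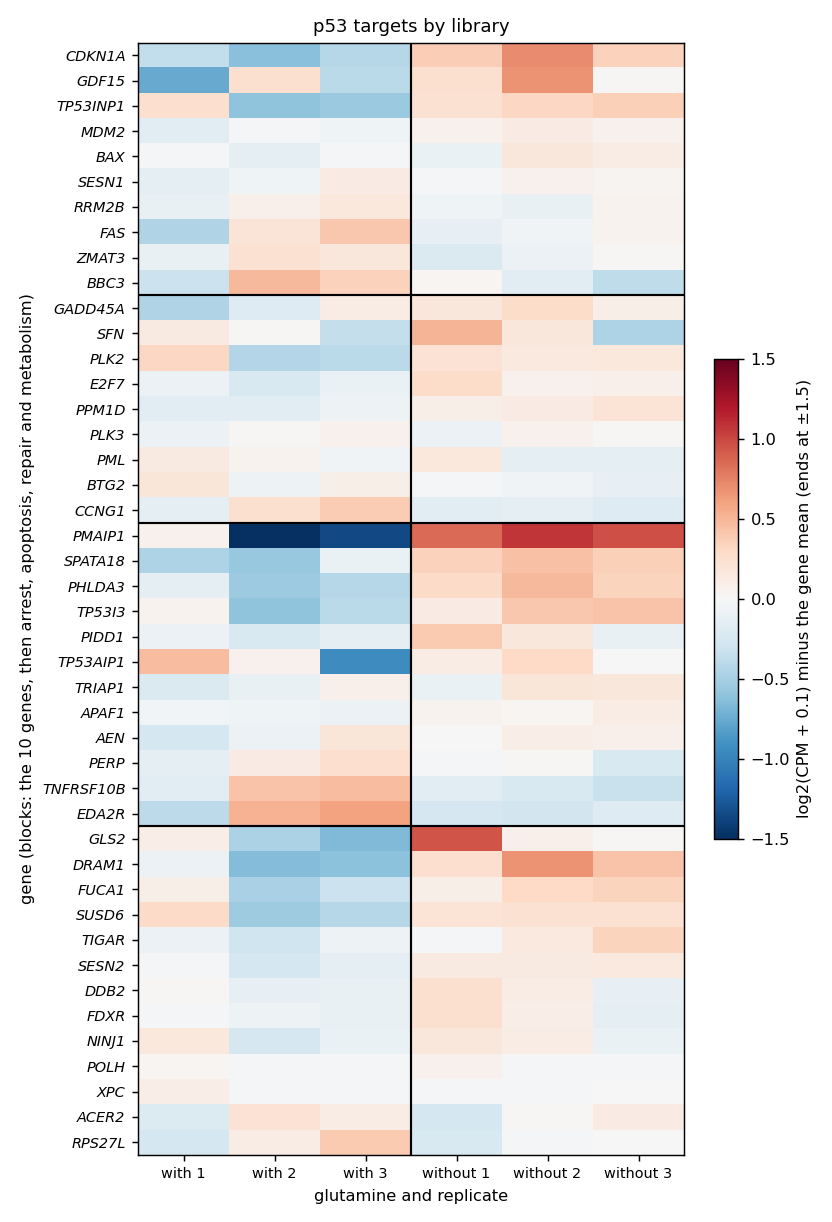
The 10 p53 targets and the 34 further ones in each library, as log2(CPM + 0.1) minus the mean of the gene, with red above and blue below the mean. Blocks from top to bottom are the 10 genes, then arrest, apoptosis, and repair and metabolism, each sorted by log2 fold change. Genes that are red on the right (CDKN1A, PMAIP1, DRAM1) stand beside genes that are blue there (BBC3, CCNG1, EDA2R), and the first column, replicate 1 with glutamine, resembles the right side in some genes and the left in others.

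Replicate 1 with glutamine was nearer the libraries without glutamine than the other 2 of its group for 5 of the 10 genes (BBC3, FAS, TP53INP1, ZMAT3 and RRM2B) and nearer its own group for the other 5. Over all genes tested it was nearer the libraries without glutamine for 62.1%, and over the 34 further targets for 21. CDKN1A and MDM2, the genes of the 10 whose groups did not overlap, were both among those that kept to their own group. Without that library groups did not overlap for 7 of the 10, with 3 higher (CDKN1A, MDM2 and TP53INP1) and 4 lower (BBC3, FAS, ZMAT3 and RRM2B), against 63.4% of all genes.

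Across the 6 libraries the genes most like CDKN1A in log2 CPM, among 11921 with a mean of at least 5 CPM, were AP2S1 (Pearson's r 0.996), MAFF (0.993), TRIB2 (0.993), C5orf30 (0.992) and CSTB (0.992). With 6 libraries in 2 groups such values are common, and 273 genes had r above 0.95. Among the p53 targets that met the same minimum, r with CDKN1A was 0.83 for MDM2, 0.78 for TP53INP1 and 0.70 for BAX, and it was negative for RRM2B (-0.53), BBC3 (-0.58) and ZMAT3 (-0.68). These values share libraries and are descriptions without a test.

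**Figure D4:**
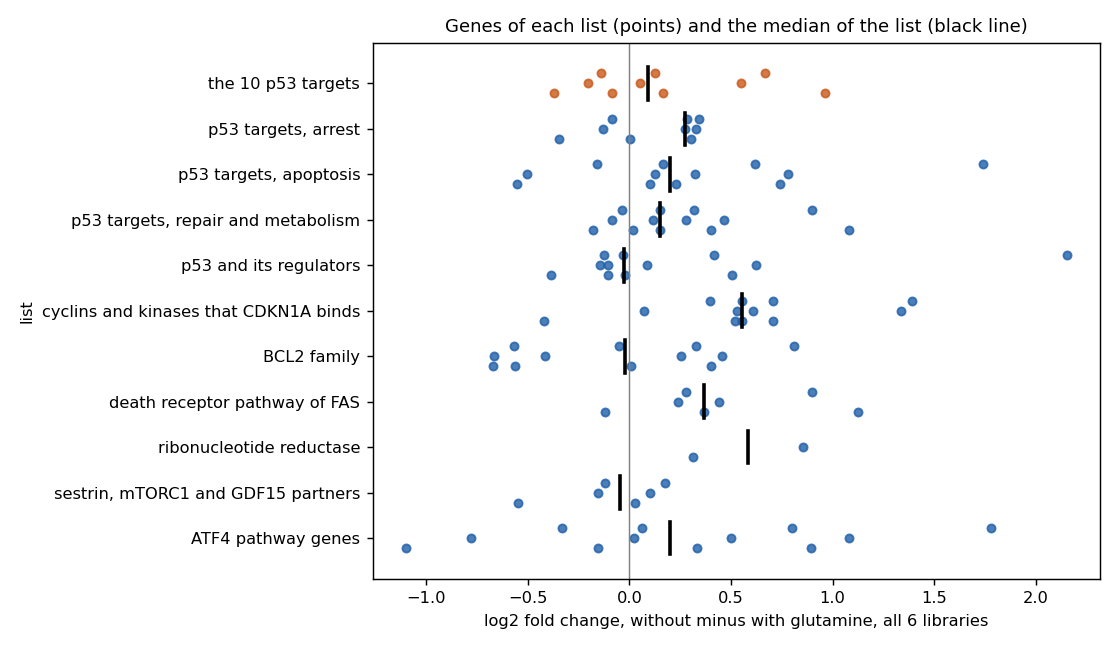
Log2 fold change of each tested gene, without minus with glutamine, by list, with all 6 libraries. Points are genes, orange for the 10 p53 targets, and black lines are medians, which run from -0.04 for the sestrin, mTORC1 and GDF15 partners to 0.58 for ribonucleotide reductase.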

How the data were processed

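Messenger RNA of 6 samples was sequenced as stranded libraries of single reads, per the labels. The authors deposited raw counts per Ensembl gene and normalized counts, treated as a signal, which are the deposited raw counts divided by 1 factor per library (0.977 to 1.08). The submitters' processing notes name cutadapt, Trim Galore, FastQC, STAR 2.5.2b, DESeq2 and GRCh38. The counting program, annotation release and strand setting are not given in the sources used here. The headings of the table columns read as days 0 and 9, but every label gives day 9. Each sample description names its column, and by it the day 0 headings belong to the supplemented libraries. Every direction rests on that.

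Symbols, positions and exon lengths came from GENCODE 29 (GRCh38), which matched 56531 of 60107 IDs. Differences in raw counts were tested by edgeR 4.0.16 (R 4.3.3; quasi-likelihood, legacy = FALSE, robust = FALSE, TMM scaling, filterByExpr), with Benjamini-Hochberg adjustment over 22613 genes and a threshold of 0.05. Standard errors are the absolute log2 fold change divided by the square root of F, and 95% intervals are for single genes. CPM uses TMM-scaled library sizes. Log2 CPM for correlations has a prior count of 2. DESeq2 1.42.0 adjusted over 21759 genes. Limma 3.58.1 gave further alternatives. Only the edgeR test was run on simulated data, in which no library stood apart, and DESeq2 and limma were not.

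The 10 genes, the lists and the rule for naming genes were chosen with earlier results of these data known. The rule names the 10 genes, the 4 genes of each list with the smallest p, and direct partners of the 10. Lists were described by counts and medians, not tested. Some genes of the lists are not reported here by name.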

Additional observations from a re-analysis of the deposited data

How the results depend on the processing

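Of 180 values of the 10 genes under 18 alternatives, 169 stayed on the same side of 0 and of the threshold, 9 became called and 2 reversed. The reversals were FAS, at 0.054 without replicate 3 with glutamine (-0.36 to 0.054 with 1 library left out), and SESN1, at -0.00069 with DESeq2 without replicate 1 with glutamine, an alternative chosen after seeing the data. For 46 other named genes, without BOK, BAD and BCL2L11, 716 of 828 values stayed, 112 became called and 0 reversed. Most of the 46 were named for a small p in the fit of all 6 libraries or after their values were seen. Their counts therefore cannot be compared with those of the 10 genes, which were chosen by name. The number of the 10 called went from 0 to 1 with DESeq2, 4 with DESeq2 without replicate 1 with glutamine, and 0 to 4 when 1 library was left out. Other alternatives called 0.

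The number of all genes called, 1, became 0 under legacy = TRUE, library size only, limma-voom, upper quartile scaling and the replicate block, 2 with limma-trend on the normalized table and without a filter, 3041 with DESeq2 and 8505 with DESeq2 without replicate 1 with glutamine. Leaving out 1 library gave 0 to 9573, the highest without replicate 1 with glutamine. The cause was not tested. Correlations of deviations of same-numbered samples from their group means were -0.02, 0.00009 and 0.03. Because replicate 1 with glutamine stood apart from its group, these values cannot settle whether the numbers pair the samples. With the replicate block none of the 10 was called.

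Medians of lists moved by more than the spread between replicates in some alternatives. With DESeq2 without replicate 1 with glutamine they were 0.21 for arrest, 0.24 for apoptosis, 0.24 for repair and metabolism, -0.0724 for regulators, 0.73 for cyclins and kinases, 0.55 for the pathway of FAS and -0.13 for sestrin partners. Under upper quartile scaling they were 0.23 for arrest, 0.15 for apoptosis, -0.0709 for regulators and -0.089 for sestrin partners. Limma-trend gave 0.19 for arrest and 0.24 for apoptosis, and limma-voom 0.20 and 0.24. With 1 library left out, medians ran from 0.048 to 0.29 for arrest, 0.14 to 0.25 for apoptosis, 0.068 to 0.24 for repair and metabolism, -0.070 to 0.039 for regulators, 0.45 to 0.73 for cyclins and kinases, 0.26 to 0.54 for the pathway of FAS, 0.48 to 0.73 for ribonucleotide reductase and -0.099 to -0.0016 for sestrin partners. GDF15, at 30 to 91 counts, is limited by depth.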
